A study of Mus musculus with 14 samples.

Results

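The collagen chains are the genes that encode the polypeptides of the collagen family. They were taken as every row of the deposited gene tables whose Ensembl identifier maps to a mouse symbol of the form Col, number, a, number. This rule found 44 genes of the 55416 listed. By class, 11 were fibrillar, 6 belonged to the type IV basement membrane chains, 6 were beaded-filament type VI chains and 21 were others, which comprise 9 fibril-associated chains, 3 hexagonal-network chains, the anchoring-fibril chain Col7a1, 4 transmembrane chains, 2 multiplexins and 2 further chains. Bulk RNA was taken from the lung and the gastrocnemius (a muscle of the calf) of male mice of strain C57BL/6NCrlOri, aged 6 to 8 weeks. In the tumour-bearing (TB) groups KrasIKKaL cells, a cultured line, had been delivered into the trachea, per the labels' protocols. The control (CON) groups share strain, sex and age, and the labels used here do not state what they received. There were 3 control and 3 tumour-bearing muscle libraries, and 3 control and 5 tumour-bearing lung libraries. The labels do not say that the libraries of a group came from separate animals; if they did not, the spread behind the p-values is technical. All tumour-bearing samples derive from cells of 1 line, the tumour cells in the lung are also of mouse, and their collagen transcripts cannot be told apart from those of the host.

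Collagens assemble from chains wound into a helix, are modified and folded in the endoplasmic reticulum, trimmed outside the cell and cross-linked. Fibrillar types I, III and V form the fibrils that bear tension in muscle connective tissue and in the walls of airways and vessels. Type IV forms the sheet of the basement membrane around each muscle fibre, capillary and alveolus, type VI forms fine filaments beside it, and the multiplexins XV and XVIII sit in basement membrane zones. Fibroblasts, smooth muscle, endothelium and epithelium each make a different set of these chains. In bulk samples, fewer cells of a type and less RNA per cell cannot be told apart.

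The libraries held 32476194 to 44169410 counts in muscle and 47947363 to 61087315 in lung. Sftpc, the surfactant gene of alveolar type 2 cells, was at 0 TPM (an abundance per transcript length, scaled to the same total in each library) in every muscle library and at 31026 to 37048 TPM in control lung. It stood at 4.39 to 873 TPM in tumour-bearing lung. Acta1, the actin of skeletal muscle fibres, did not exceed 0.42 TPM in any lung library. Mitochondrial genes took 16.2% to 34.1% of counts in muscle, with the groups overlapping (16.2% to 34.1% in control and 17.6% to 24.0% in tumour-bearing libraries).

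Promoter sequences are shown for those of the 5 chains called higher and the 6 that fell most in tumour-bearing lung whose RefSeq promoter stretch overlaps no annotated exon. Col10a1, Col7a1, Col11a1 and Col27a1 were higher and Col4a6, Col13a1 and Col23a1 were lower. Each line gives the 100 bases before the annotated start, 5′ to 3′ on the gene's strand, from the RefSeq promoter table (GRCm38.p6, which need not be the build behind the deposited counts). Capitals mark a TATAAA or CCAAT motif on either strand, the latter also read as ATTGG.
Col10a1 (chr10:34389881-34389980, plus strand): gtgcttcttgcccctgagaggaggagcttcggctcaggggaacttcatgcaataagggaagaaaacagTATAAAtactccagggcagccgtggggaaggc
Col7a1 (chr9:108953486-108953585, plus strand): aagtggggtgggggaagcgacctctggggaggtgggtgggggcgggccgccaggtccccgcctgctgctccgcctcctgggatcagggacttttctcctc
Col11a1 (chr3:114030440-114030539, plus strand): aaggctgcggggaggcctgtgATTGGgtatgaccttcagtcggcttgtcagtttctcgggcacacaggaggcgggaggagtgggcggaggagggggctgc
Col27a1 (chr4:63215312-63215411, plus strand): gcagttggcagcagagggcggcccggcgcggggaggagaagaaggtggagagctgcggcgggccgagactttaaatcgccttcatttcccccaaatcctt
Col4a6 (chrX:141474077-141474176, minus strand): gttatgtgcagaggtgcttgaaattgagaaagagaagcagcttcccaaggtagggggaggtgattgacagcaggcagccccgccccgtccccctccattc
Col13a1 (chr10:61979109-61979208, minus strand): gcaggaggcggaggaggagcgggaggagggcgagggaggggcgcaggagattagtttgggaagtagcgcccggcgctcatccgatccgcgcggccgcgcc
Col23a1 (chr11:51289820-51289919, plus strand): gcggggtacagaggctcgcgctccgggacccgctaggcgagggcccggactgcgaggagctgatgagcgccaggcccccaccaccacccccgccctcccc

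The TATAAA of Col10a1 began 32 bases before its start, and the ATTGG of Col11a1 began 79 bases before. The other 5 stretches hold neither motif. G and C made up 54% of the 100 bases in Col10a1, 57% in Col4a6, 63% in Col27a1, 65% in Col11a1, 71% in Col7a1, 73% in Col13a1 and 77% in Col23a1. Over the 250 bases before the start, TATAAA on either strand was found in 5 of the 38 promoter windows of the 35 chains matched in the table, and in 12.4% of all 32851 promoters there. CCAAT was found in 13 of the 38, and in 33.85% of all promoters. Both shares are close to those of all promoters. The 5 with TATAAA belonged to Col3a1, Col10a1, Col11a2, Col13a1 and Col17a1, of which in lung Col10a1 was higher, Col13a1 was lower and the other 3 did not pass. A match of letters is a description, not a binding site.

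In gastrocnemius of tumour-bearing mice most fibrillar chains and the tested type VI chains were far lower, while no tested type IV chain passed. Col15a1, a multiplexin of basement membrane zones, was far lower too. Of the 44 chains, 35 had enough counts to be tested, and 18 of them were lower and 0 higher (edgeR quasi-likelihood test, Benjamini-Hochberg adjusted p below 0.05 over all genes). Over all 14373 genes tested in muscle, 6.75% were lower and 8.53% higher. The median log2 change of the tested chains was -2.02, beside -0.03 over all genes. In 25 of the 35 the control and tumour-bearing libraries did not overlap, each time with tumour-bearing lower, against 22% of all genes in that direction. Levels are given as CPM, the counts of a gene as parts of the scaled library size within a tissue, brought to a common total, so they compare libraries for 1 gene and not genes with each other, nor muscle with lung.

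**Figure D1:**
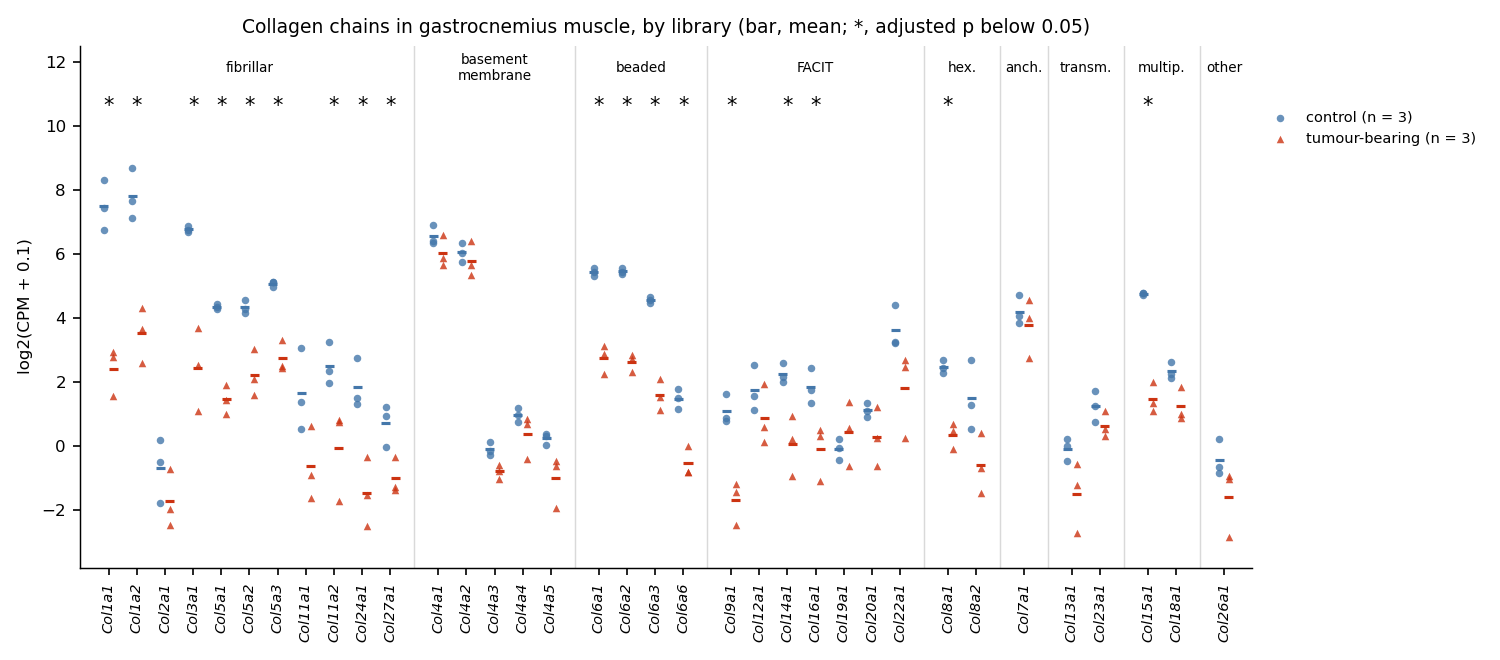
Level of each tested collagen chain in the 6 muscle libraries, as log2(CPM + 0.1), by class (hex., hexagonal network; anch., anchoring fibril; transm., transmembrane; multip., multiplexin; FACIT, fibril-associated). Points are libraries, bars are group means and asterisks mark an adjusted p below 0.05. The 4 tested beaded chains and 9 of the 11 fibrillar chains are lower in the tumour-bearing libraries, and none of the 5 tested basement membrane chains passed.

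Among the fibrillar chains 9 of 11 were lower, with a median log2 change of -2.56. Col1a1, which encodes the chain present in duplicate in type I collagen, was at 107, 172 and 314 CPM in the control libraries and at 2.82, 7.54 and 6.72 CPM in the tumour-bearing ones. The fitted log2 change was -5.12 ± 0.55 (SE; edgeR adjusted p = 0.00496). The groups were far apart, also in TPM, with 18.57, 20.46 and 27.76 in control and 0.50, 1.09 and 0.62 in tumour-bearing muscle. Its partner chain Col1a2 read 138, 201 and 410 CPM in control and 5.92, 12.4 and 19.7 CPM in tumour-bearing muscle, a log2 change of -4.31 ± 0.57 (adjusted p = 0.00673). Control library 3 was the highest for both type I chains. Col3a1, the chain of type III collagen, was at 106, 102 and 117 CPM in the controls and fell to 2.03, 5.69 and 12.8 CPM (-4.00 ± 0.60, adjusted p = 0.0093). Its controls were even in CPM but less so in TPM, at 19.67, 13.13 and 11.06.

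The minor fibrillar chains followed with smaller changes. The type V chains, which regulate fibril width, stood at 19.1 to 21.7 CPM for Col5a1 in control and 1.91 to 3.67 CPM in tumour-bearing muscle. Col5a2 was at 17.7 to 23.3 and 2.88 to 7.95 CPM, and Col5a3 at 31.2 to 34.5 and 5.29 to 9.70 CPM. Their log2 changes were -2.91, -2.02 and -2.28, with no overlap in any of them. Col24a1 was at 2.36, 2.73 and 6.61 CPM in control and at 0.243, 0.695 and 0.0772 CPM in tumour-bearing libraries (-3.46 ± 0.70, adjusted p = 0.018). Col11a2 (-2.42, adjusted p = 0.0448) and Col27a1 (-1.91, adjusted p = 0.0458) passed narrowly. Col11a1, at 1.35 to 8.14 CPM against 0.223 to 1.43 CPM, overlapped and did not pass (-2.56, adjusted p = 0.0617), nor did Col2a1, the cartilage collagen, which was near its detection limit at 56 and 23 counts in all.

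All 4 of the tested type VI chains were lower, with a median log2 change of -2.76. Col6a1 was at 39.5, 43.1 and 47.1 CPM in control muscle and at 4.60, 7.28 and 8.49 CPM in tumour-bearing muscle (-2.67 ± 0.31, adjusted p = 0.00587). Col6a2 was at 43.1, 46.8 and 40.8 CPM and at 4.87, 7.0 and 6.41 CPM (-2.84 ± 0.27, adjusted p = 0.00425). Col6a3, the long chain that joins them in the type VI monomer, was at 23.6, 21.8 and 24.7 CPM and at 2.09, 4.12 and 2.78 CPM (-2.96 ± 0.32, adjusted p = 0.00496). The 3 chains of the monomer thus changed by similar amounts, and the controls of each lay close together in CPM. In TPM the controls were further apart, at 10.05, 7.52 and 6.11 for Col6a1 and 11.15, 8.27 and 5.33 for Col6a2. Those of Col6a3 were at 3.95, 2.73 and 1.55 TPM, so the closeness of replicates depends on the scaling. Col6a6, an alternative to Col6a3, fell from 2.13 to 3.29 CPM in the controls to 0.463 to 0.901 CPM (-2.15, adjusted p = 0.017). Col6a4 and Col6a5 were not tested: Col6a4 had 0 counts in the 3 control libraries, which allows up to 3 counts in each, and Col6a5 had 5 counts there in all.

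None of the 5 tested type IV chains passed, and their median log2 change was -0.55. Col4a1 was at 80.0, 84.0 and 119 CPM in control and at 50.1, 58.7 and 95.3 CPM in tumour-bearing muscle, so the groups overlapped (-0.47 ± 0.32, adjusted p = 0.31). Col4a2, with which it forms the common type IV molecule, was at 53.8, 65.2 and 80.5 CPM and at 39.9, 49.5 and 84.4 CPM (-0.20 ± 0.33, adjusted p = 0.689). Tumour-bearing library 3 was above every control for Col4a2. Col4a3, Col4a4 and Col4a5, chains of the specialised basement membranes of kidney and alveolus, were at 0.162 to 2.15 CPM across the muscle libraries. Their log2 changes were -0.79, -0.55 and -1.33. Col4a3 was at 0.719 to 0.989 CPM in control and 0.386 to 0.566 CPM in tumour-bearing muscle, and Col4a5 at 0.924 to 1.20 and 0.162 to 0.618 CPM. These 2 of the 5 tested chains thus did not overlap and were lower, as were 22% of all genes (edgeR adjusted p = 0.203 and 0.112). A p that misses the threshold does not show that these levels were equal.

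The remaining classes were mixed. Col15a1, the multiplexin of the muscle and capillary basement membrane zone, was at 26.2, 27.2 and 27.3 CPM in the controls and at 2.03, 3.86 and 2.43 CPM in tumour-bearing muscle (-3.28 ± 0.32, adjusted p = 0.00432). The controls lay close together in CPM but not in TPM, where they were at 14.47, 10.11 and 7.84. The groups did not overlap on either scale. Its relative Col18a1, source of the fragment endostatin, was at 4.69, 4.26 and 6.08 CPM and at 1.89, 1.72 and 3.47 CPM, which did not pass (-1.09 ± 0.36, adjusted p = 0.0675). Of the fibril-associated chains Col9a1 (2.94, 1.74 and 1.60 CPM against 0.0811, 0.334 and 0.270 CPM; -3.22 ± 0.57, adjusted p = 0.0141), Col14a1 (-2.14, adjusted p = 0.0266) and Col16a1 (-1.98, adjusted p = 0.0372) were lower. The vessel-wall chain Col8a1 was lower as well (-2.18, adjusted p = 0.0105).

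Col7a1, which forms the anchoring fibrils of skin, was at 14.03, 16.6 and 25.9 CPM in control and at 6.57, 23.49 and 15.98 CPM in tumour-bearing muscle (-0.29, adjusted p = 0.658). Col22a1, a chain of the muscle-tendon junction, was at 9.18 to 20.8 CPM against 1.10 to 6.29 CPM and did not overlap, yet missed the threshold (-1.63, adjusted p = 0.0898). Col8a2 was close to it (-2.35, adjusted p = 0.0541). Col12a1, Col13a1, Col20a1, Col23a1 and Col26a1 had log2 changes from -1.47 to -0.64 and did not pass. Col19a1 had the only positive value (0.76, adjusted p = 0.344). The 9 chains not tested (Col4a6, Col6a4, Col6a5, Col9a2, Col9a3, Col10a1, Col17a1, Col25a1 and Col28a1) had at most 25 counts in either group.

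Leaving out control library 1, 2 or 3 gave 10, 9 and 8 chains called lower, and leaving out a tumour-bearing library gave 16 to 18. The calls of Col1a1, Col1a2, Col6a1, Col6a2, Col6a3 and Col15a1 held under every alternative run in muscle, and the other 12 missed the threshold in at least 1, Col3a1 among them without control library 3 (edgeR adjusted p = 0.0536).

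Some markers of several cell types passed in the same libraries, where 6.75% of all genes were lower and 8.53% higher. Of 8 tested fibroblast markers that encode no matrix, 5 were lower (Thy1, Pi16, Clec3b, Dpp4 and Cd34), and the sum over the 9 listed was 139 to 154 CPM in control and 59.5 to 62.4 CPM in tumour-bearing muscle. Pi16 was at 24.8, 28.9 and 26.7 CPM against 0.811, 2.93 and 2.35 CPM (-3.73 ± 0.46, edgeR adjusted p = 0.00604). Thy1 changed by -3.16 (adjusted p = 0.00496). Of 6 tendon markers, 2 were lower, with sums of 118 to 434 CPM and 49.0 to 234 CPM. The tendon matrix gene Kera was at 3.12, 8.33 and 27.0 CPM in the controls, with library 3 the highest as for Col1a1, and at 0.0406 to 0.425 CPM in tumour-bearing libraries (-5.67, adjusted p = 0.0129). Of 5 pericyte markers 2 were lower (sums 228 to 284 and 128 to 392 CPM), of 8 endothelial markers 1 (Kdr; 164 to 310 and 132 to 251 CPM), and of 8 Schwann cell markers 0 (42.8 to 407 and 52.4 to 209 CPM). Of 4 tested adipocyte markers only Plin1 was lower (-3.09, adjusted p = 0.0312; sums 16.8 to 51.5 and 7.30 to 25.6 CPM). Of 4 tested leukocyte markers Cd68 and the neutrophil gene S100a8 were higher (S100a8 by 2.63, adjusted p = 0.0216) and the T cell gene Cd3e lower (-4.52, adjusted p = 0.019), with sums of 5.01 to 6.69 and 6.25 to 30.7 CPM. Of 6 smooth muscle and 6 muscle fibre markers tested, 0 passed. Of the lung epithelial lists only Rtkn2 passed in muscle, lower from about 1 CPM (-3.91, adjusted p = 0.0297). The cartilage markers Matn1 and Snorc were at 0 in all 6 libraries. Of the sums given, only that of the fibroblast markers did not overlap between the groups, and 1 of 8 endothelial markers is not far from the share of all genes. Many of these marker calls were unstable. Thy1 and Pi16 kept theirs in all 15 alternatives, and Kera lost its call in 1. Kdr lost its call in 7 of 15, Notch3 in 6, Cspg4 and Tnmd in 5, and Rtkn2 in 6 of 14. Those of Plin1, Cd3e and S100a8 were lost in 3 of 14, that is, without any 1 control library. The part of these cell types in the collagen changes was not tested.

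Genes that act on collagen changed in part, where 6.75% of all genes were lower and 8.53% higher. Of 16 tested genes of modification and folding, 3 were lower (Crtap, Colgalt2 and Serpinh1) and 1 was higher (P4hb). Serpinh1, the chaperone of procollagen, was at 41.6, 51.1 and 71.1 CPM in control and at 10.5, 19.3 and 15.02 CPM in tumour-bearing muscle (-1.87 ± 0.33, edgeR adjusted p = 0.0138). P4hb, a subunit of prolyl hydroxylase and a general disulphide isomerase, was at 112, 103 and 90.3 CPM and at 339, 216 and 235 CPM (1.38 ± 0.28, adjusted p = 0.0189). Of 9 tested genes of processing and cross-linking, 3 were lower (Bmp1, Pcolce and Loxl2) and 0 higher. Pcolce, which speeds removal of the C-propeptide, changed by -2.20 (adjusted p = 0.00917), and the cross-linking oxidase Loxl2 by -2.22 (adjusted p = 0.00673). Of 9 tested collagen receptors, 4 were lower (Itga2, Itga11, Ddr2 and Mrc2), among them Mrc2, an uptake receptor, with -2.12 (adjusted p = 0.0107). Of 10 genes of collagen breakdown only Fap was lower (-1.51, adjusted p = 0.0273), and of 12 genes of TGF-beta signalling 0 passed. Several of these calls were unstable: of 15 alternatives, Ddr2 and Fap lost theirs in 6, P4hb in 5, Serpinh1 in 4, Mrc2 in 2, Pcolce in 1 and Loxl2 in 0. Those of P4hb, Ddr2 and Fap were lost without any 1 control library and on both TPM scales, where the log2 change of P4hb was as low as 0.80 (limma adjusted p = 0.358).

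In lung the pattern differed: every type IV chain was lower in the tumour-bearing libraries, most fibrillar chains did not pass, and 5 chains were higher. There, 38 chains were tested, of which 15 were lower and 5 higher, which makes 20 called, where 59.7% of all genes were called. In lung 29.3% of the 19300 genes tested were lower and 30.4% higher, so the share of chains called higher lay below that of all genes. The median log2 change of the chains was -0.81, beside 0.07 over all genes. The groups did not overlap in 16 chains that were lower, against 32.1% of all genes, and in 6 that were higher, against 30.9%.

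**Figure D2:**
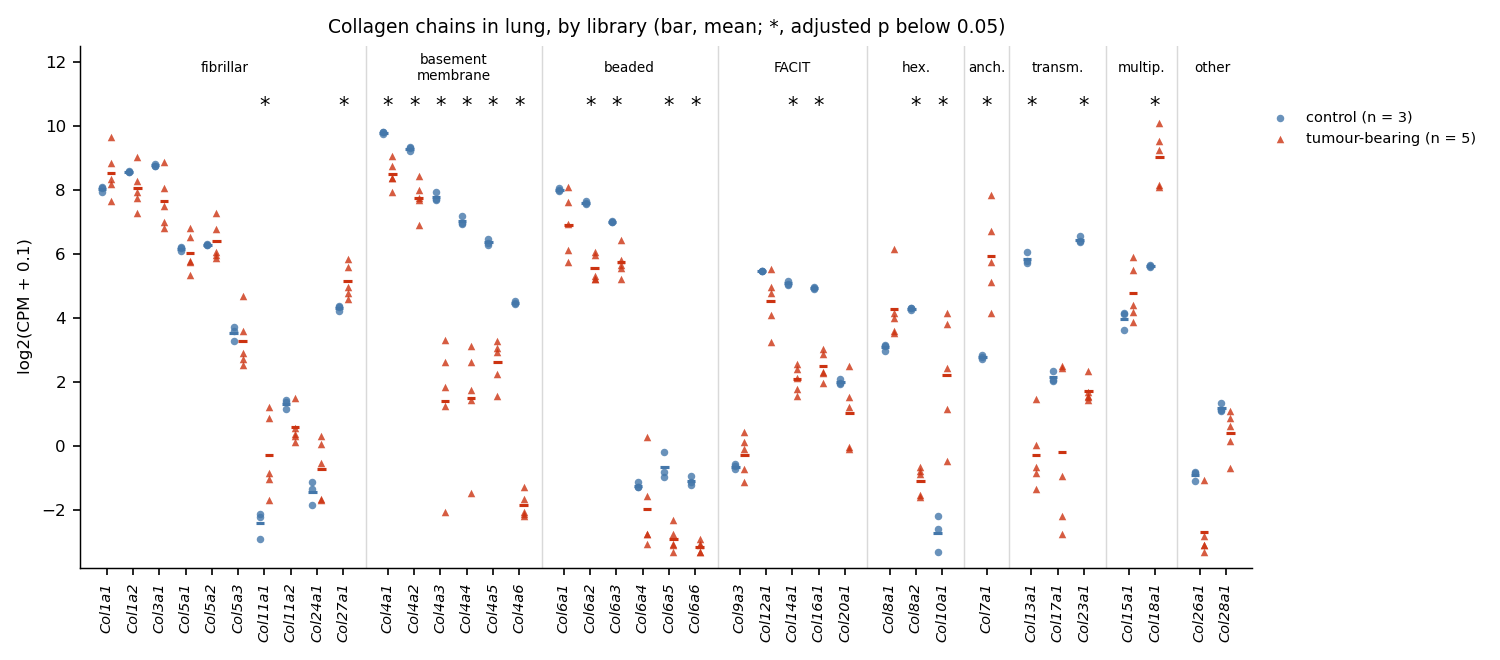
Level of each tested collagen chain in the 8 lung libraries, as log2(CPM + 0.1), by class, with the symbols and abbreviations of the muscle plot. All 6 basement membrane chains are lower in the 5 tumour-bearing libraries, while Col7a1, Col10a1, Col11a1, Col18a1 and Col27a1 are higher.

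All 6 type IV chains were lower, with a median log2 change of -4.31. The common chain Col4a1 was at 856, 897 and 888 CPM in control lung and at 241, 332, 424, 330 and 526 CPM in tumour-bearing lung (-1.25 ± 0.24, edgeR adjusted p = 0.00178). Col4a2 was at 645, 625 and 594 CPM and at 120, 205, 255, 213 and 344 CPM (-1.45 ± 0.28, adjusted p = 0.00203). Neither overlapped, and library TB 5 was the highest and TB 1 the lowest of the tumour-bearing group in both. The chains of the specialised network changed more. Col4a3 was at 243, 205 and 207 CPM in control and at 3.50, 0.139, 9.71, 5.98 and 2.28 CPM in tumour-bearing lung (-5.66 ± 0.89, adjusted p = 0.00058). Col4a4 was at 144, 122 and 124 CPM and at 3.22, 0.258, 8.50, 6.05 and 2.62 CPM (-4.97 ± 0.77, adjusted p = 0.000546). Library TB 2 was lowest and TB 3 highest for both.

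Col4a5 fell from 77.0 to 88.4 CPM to a range of 2.84 to 9.51 CPM (-3.65 ± 0.35, adjusted p = 3.93e-05). Col4a6, present with Col4a5 in the basement membrane of smooth muscle and bronchi, was at 22.8, 21.3 and 22.1 CPM in control and at 0.131, 0.139, 0.119, 0.311 and 0.220 CPM in tumour-bearing lung. Its change was -6.91 ± 0.35 (adjusted p = 1.91e-06), from 3882 counts in 3 libraries to 46 in 5. Several chains are neighbours in the genome, and the type IV genes lie in head-to-head pairs. Both members of each type IV pair (Col4a1 with Col4a2, Col4a3 with Col4a4, Col4a5 with Col4a6) were lower in lung. In muscle no tested type IV chain passed. Col3a1 and its neighbour Col5a2 were both lower in muscle and both missed the threshold in lung. Col6a1 and Col6a2 were both lower in muscle. In lung Col6a2 was lower, and Col6a1 passed only in some alternatives. Col6a5 and Col6a6 were both lower in lung, and Col6a4, beside Col6a5, did not pass there. Col9a1 was lower in muscle, where its neighbour Col19a1 did not pass.

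Markers of cells that border alveolar basement membranes moved with these chains. Over all genes tested in lung, 29.3% were lower and 30.4% higher. All 8 endothelial markers were lower, with a summed level of 3062 to 3250 CPM in control and 174 to 213 CPM in tumour-bearing lung. All 6 alveolar type 1 markers were lower (3776 to 4348 and 18.3 to 223 CPM), as were all 7 alveolar type 2 markers (21706 to 23687 and 131 to 1121 CPM). Rtkn2, a type 1 cell marker, was at 214, 179 and 176 CPM and at 3.01, 0.139, 3.24, 2.22 and 1.13 CPM. It was lowest in TB 2, as Col4a3 and Col4a4 were. The 5 general epithelial markers were all higher (1227 to 1254 and 9850 to 18425 CPM), and so were the 5 cycling-cell markers (28.7 to 40.5 and 246 to 588 CPM). The part of these cells in the type IV values was not tested.

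Among the 10 tested fibrillar chains 2 were higher, 0 were lower, and the median log2 change was 0.10. Col1a1 was at 243, 266 and 274 CPM in control and at 321, 797, 198, 292 and 456 CPM in tumour-bearing lung, which overlapped (0.66 ± 0.41, edgeR adjusted p = 0.186). Col1a2 was at 375, 376 and 382 CPM and at 242, 516, 154, 212 and 307 CPM (-0.40 ± 0.34, adjusted p = 0.34). Col3a1 was at 430, 424 and 443 CPM and at 180, 461, 127, 110 and 265 CPM (-0.92 ± 0.43, adjusted p = 0.0906). TB 2 was the highest tumour-bearing library for all 3 chains and lay above every control for each of them in CPM. In TPM it was below every control for Col1a2 (107 against 110 to 115) and Col3a1 (118 against 151 to 170). The other tumour-bearing libraries were lower still for both. Without TB 2, 19 chains and not 15 were lower, among them Col1a2 (-0.70, edgeR adjusted p = 0.0235) and Col3a1 (-1.32, adjusted p = 0.00448). Both were also lower with limma on log2(TPM + 1), by -1.02 (adjusted p = 0.0207) and -1.40 (adjusted p = 0.00812), and on log2(TPM + 0.1), so their calls depend on the scale and on 1 library. Col5a1, Col5a2 and Col5a3 had log2 changes of -0.01, 0.22 and -0.02, with tumour-bearing libraries on both sides of the controls.

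The fibrillar chains that were higher were minor ones. Col11a1, a cartilage and embryonic chain, was at 0.114, 0.0337 and 0.127 CPM in control and at 0.213, 2.24, 0.392, 0.455 and 1.74 CPM in tumour-bearing lung. Its change was 3.43 ± 0.96 (adjusted p = 0.0129), from 16 to 242 counts, and it missed the threshold without control library 2. Col27a1 was at 18.5, 20.7 and 19.9 CPM and at 47.9, 27.1, 31.0, 23.7 and 57.4 CPM (0.92 ± 0.31, adjusted p = 0.0268). In CPM all 5 tumour-bearing libraries were above the 3 controls. In TPM the groups overlapped, with TB 4 at 4.65 below the controls at 5.40, 5.27 and 5.91. The call was lost when any 1 control was left out, in 1 fit of all libraries and on both TPM scales (0.51 with limma on log2(TPM + 1), adjusted p = 0.159). Col11a2 (-0.69) and Col24a1 (1.17) did not pass, and Col2a1 was not tested, with 3 counts in control and 32 in tumour-bearing lung.

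These fibrillar values stood beside lower fibroblast markers, in a tissue where 29.3% of all genes were lower and 30.4% higher. Of 9 fibroblast markers 8 were lower, with sums of 811 to 877 CPM in control and 89.4 to 149 CPM in tumour-bearing lung. Pdgfra was at 384, 338 and 335 CPM and at 16.7, 5.93, 18.8, 15.5 and 8.83 CPM (-4.75 ± 0.36, edgeR adjusted p = 1.26e-05). The exception, Thy1, did not pass. Of 7 smooth muscle and myofibroblast markers 5 were lower (404 to 583 and 90.3 to 349 CPM), and of 5 pericyte markers 3 were lower and 1, Rgs5, was higher (127 to 156 and 47.9 to 80.8 CPM). Whether tumour cells or host cells made the collagen transcripts was not tested.

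Of the type VI chains 4 of 6 were lower. Col6a2 was at 200.4, 193 and 186 CPM in control lung and at 37.2, 66.7, 39.7, 37.0 and 62.6 CPM in tumour-bearing lung (-1.99 ± 0.23, edgeR adjusted p = 0.000107). Col6a3 was at 126, 126 and 130 CPM and at 46.9, 86.1, 50.3, 37.1 and 55.3 CPM (-1.21 ± 0.24, adjusted p = 0.00227). Col6a1 was at 265, 252 and 249 CPM and at 52.8, 123, 194, 69.6 and 268 CPM (-0.85 ± 0.47, adjusted p = 0.147). TB 3 and TB 5 set Col6a1 apart from its partner: they were high for Col6a1 and within the range of the others for Col6a2. Without TB 5 Col6a1 was lower (-1.18, edgeR adjusted p = 0.0361). It was also lower with limma on log2(TPM + 1) (-1.52, adjusted p = 0.0212) and on log2(TPM + 0.1), so its call depends on the scale and on 1 library. Col6a5 (-3.87, adjusted p = 0.00132) and Col6a6 (-4.40, adjusted p = 0.000275) were lower from under 1 CPM, with 96 and 64 counts in control and 9 and 4 in tumour-bearing lung. Col6a4 did not pass (-0.14).

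Beside Col11a1 and Col27a1, the chains that rose in lung were Col18a1, Col7a1 and Col10a1. Col18a1, the multiplexin of epithelial and vascular basement membranes, was at 50.5, 48.7 and 48.1 CPM in control and at 273, 729, 604, 282 and 1078 CPM in tumour-bearing lung (3.60 ± 0.52, edgeR adjusted p = 0.000352). The lowest tumour-bearing library lay far above the highest control. Col7a1, the anchoring-fibril chain that epithelia such as epidermis make, was at 6.43, 7.10 and 6.75 CPM and at 17.7, 105, 34.7, 53.7 and 230 CPM (3.71 ± 0.83, adjusted p = 0.00422). Its tumour-bearing libraries spanned 17.7 to 230 CPM without reaching the controls. Col10a1, the network chain of hypertrophic cartilage, was at 0.0651, 0.118 and 0 CPM and at 2.11, 17.5, 0.613, 5.32 and 13.8 CPM (6.94 ± 1.44, adjusted p = 0.00281). That is 11 counts in the controls and 1869 in the tumour-bearing libraries, so the size of this change is imprecise.

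Beside Col10a1 and Col11a1, of 8 cartilage markers 4 were tested in lung and 2 of them were higher. Over all genes tested in lung 30.4% were higher, so this count of 4 markers is too small to set apart from that share. The cartilage sums were 1.14 to 1.82 CPM in control and 41.6 to 110 CPM in tumour-bearing lung. Nearly all of that sum was Sox9, a regulator of cartilage that some epithelia also express, at 0.553, 0.825 and 0.835 CPM and at 104, 51.6, 49.0, 41.0 and 109 CPM (6.59 ± 0.51, edgeR adjusted p = 1.28e-05). Matn1, a cartilage matrix protein, had 0 counts in the 3 controls and 132 in the 5 tumour-bearing libraries. The cartilage collagens Col2a1, Col9a1 and Col9a2 had at most 32 counts in either lung group. The cells behind these counts were not tested. The exons of Col10a1 share 18 bases with Nt5dc1 on the opposite strand, which is 0.575% of its exonic length in the GENCODE annotation.

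The other chains that fell in lung included 2 of 3 tested transmembrane collagens. Col13a1, a transmembrane chain that marks a set of lung fibroblasts, was at 65.7, 54.7 and 52.3 CPM in control and at 0.458, 2.66, 0.920, 0.290 and 0.538 CPM in tumour-bearing lung (-5.88 ± 0.66, edgeR adjusted p = 9.09e-05). Col23a1 was at 93.7, 82.9 and 83.8 CPM and at 2.75, 2.62, 4.92, 3.11 and 2.86 CPM (-4.74 ± 0.24, adjusted p = 1.66e-06). The third, Col17a1 of epithelial hemidesmosomes, split the tumour-bearing group, with 5.32 and 5.51 CPM in TB 4 and TB 5, above the controls at 3.96 to 4.91 CPM, and 0.0491 to 0.417 CPM in the rest (-0.92, adjusted p = 0.54). Col8a2 was at 19.7, 18.9 and 19.5 CPM and at 0.229, 0.536, 0.443, 0.476 and 0.245 CPM (-5.64 ± 0.34, adjusted p = 3.47e-06). Its partner Col8a1 went the other way, at 7.76 to 8.77 CPM in control and 11.4 to 71.3 CPM in tumour-bearing lung, and missed the threshold (1.61, adjusted p = 0.0554).

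The fibril-associated chains Col14a1 (32.2 to 35.3 against 2.84 to 5.74 CPM; -2.98, edgeR adjusted p = 1.87e-05) and Col16a1 (29.7 to 30.9 against 3.78 to 8.00 CPM; -2.41, adjusted p = 7.24e-05) were lower. Col15a1 was at 12.1, 17.1 and 17.4 CPM in control and at 17.9, 60.1, 21.0, 14.5 and 45.1 CPM in tumour-bearing lung, and did not pass (1.03, adjusted p = 0.0939). Col9a3, Col12a1, Col20a1, Col26a1 and Col28a1 had log2 changes from -2.23 to 0.54 and did not pass. Col2a1, Col9a1, Col9a2, Col19a1, Col22a1 and Col25a1 were not tested and had at most 33 counts in either group.

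Genes that act on collagen were called in both directions in lung, as were genes in general, of which 30.4% were higher and 29.3% lower. Of 17 genes of modification and folding 4 were higher and 6 lower, together about the 59.7% of all genes called. The largest was Colgalt2, a collagen galactosyltransferase, at 15.3 to 18.8 CPM in control and 0.122 to 0.476 CPM in tumour-bearing lung (-5.87, edgeR adjusted p = 6.93e-06). P3h2, the prolyl 3-hydroxylase of basement membrane collagens, changed by -4.53 (adjusted p = 3.33e-05). Of 12 tested genes of processing and cross-linking 4 were higher (Bmp1, Pcolce, Loxl3 and Loxl4) and 7 lower, among them Loxl1 with -2.45 (adjusted p = 7.07e-05). Of 11 receptors 2 were higher and 6 lower. Itga2, the receptor subunit that binds type I collagen on epithelia and platelets, rose from 28.7 to 30.3 CPM to a range of 250.1 to 398 CPM (3.46 ± 0.23, adjusted p = 6.55e-06). Mrc2 was lower (-2.86, adjusted p = 3.78e-06), as in muscle. Of 12 breakdown genes 3 were higher (Mmp13, Mmp14 and Timp1) and 3 lower, a smaller share than of all genes, with Timp3, a matrix-bound inhibitor, at -3.30 (adjusted p = 2.36e-06). Of 12 TGF-beta genes 3 were higher and 5 lower, including the receptor Tgfbr2 at -1.69 (adjusted p = 2.07e-05) and the mediator Smad3 at 1.33 (adjusted p = 0.000135).

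Whether the tumour-associated change itself differed between tissues was tested with the interaction of tissue and tumour in 1 fit of all 14 libraries. This fit shares 1 spread per gene across both tissues, which the fits within a tissue avoid, and its p-values rest on that sharing. Of 43 chains tested, the change was more positive in lung than in muscle for 16 and more negative for 8, against 16.6% and 19% of the 19834 genes tested and 35.6% in either direction. The median difference was 1.03 log2 units, beside -0.05 over all genes. For the fibrillar class the difference was positive for all 11 chains and passed for 10. It was 5.76 ± 0.72 for Col1a1 (edgeR adjusted p = 3.94e-05), 3.89 ± 0.67 for Col1a2 (adjusted p = 0.00051) and 3.08 ± 0.76 for Col3a1 (adjusted p = 0.00601). Col11a2 did not pass (1.69, adjusted p = 0.12). Of those that passed, Col2a1 (4.10 ± 1.47, adjusted p = 0.0415) rested on at most 56 counts in any group and was not tested in lung alone.

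**Figure D3:**
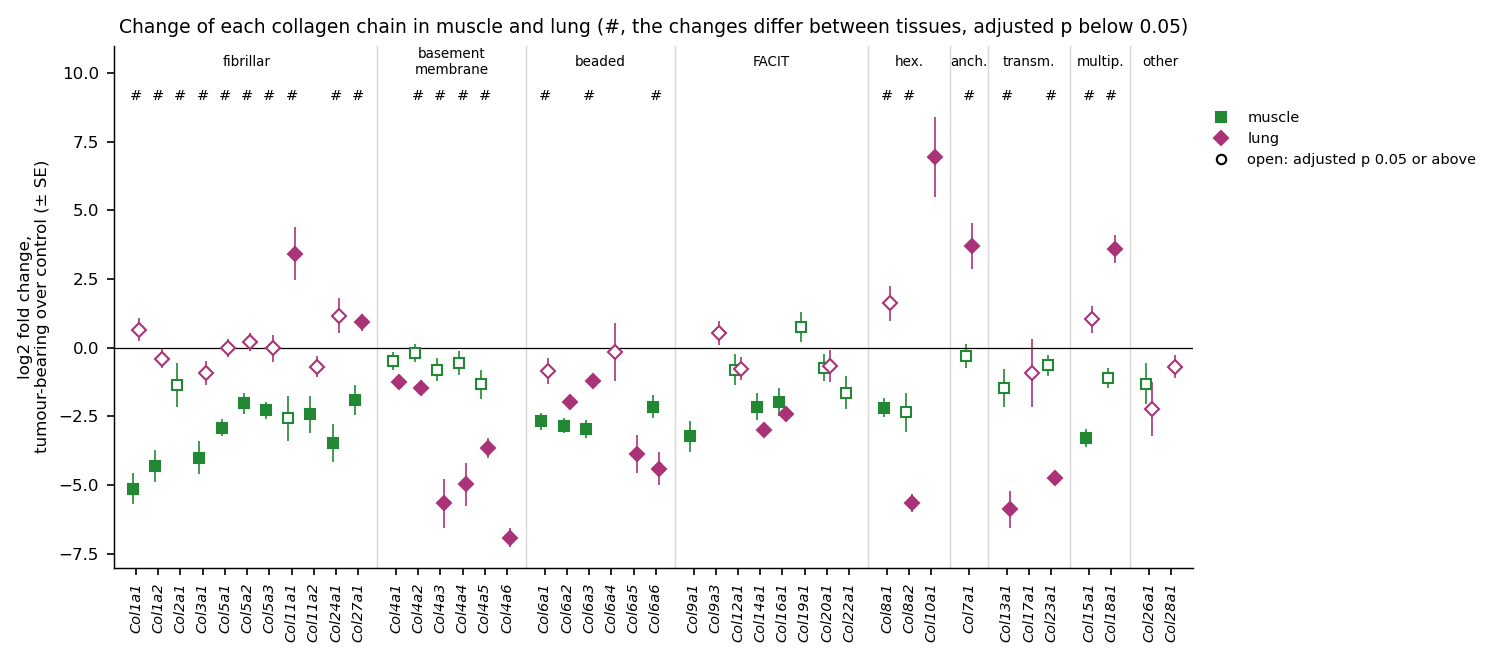
Fitted log2 change of each chain, tumour-bearing over control, in muscle (squares) and lung (diamonds), with its SE. Filled symbols passed in that tissue, and # marks chains whose change differed between tissues. The 11 fibrillar chains have a median of -2.56 in muscle and the 10 tested in lung one of 0.10, with Col11a1 up at 3.43; the basement membrane chains have medians of -0.55 in muscle, with Col4a5 at -1.33, and -4.31 in lung.

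For the type IV class the difference was negative for all 6 chains and passed for 4: -4.86 for Col4a3 (adjusted p = 0.00448), -4.41 for Col4a4 (adjusted p = 0.00344), -2.30 for Col4a5 (adjusted p = 0.0101) and -1.25 for Col4a2 (adjusted p = 0.0394). The Col4a2 call was lost in 10 of 20 alternatives. Col4a1 (-0.78, adjusted p = 0.138) and Col4a6 (-3.69, adjusted p = 0.0596) did not pass. Both multiplexins differed, Col15a1 by 4.29 (adjusted p = 0.000211) and Col18a1 by 4.70 (adjusted p = 7.21e-05). Of the type VI chains Col6a3 differed by 1.74 (adjusted p = 0.00449), and Col6a1 by 1.82 (adjusted p = 0.0358), a call lost in 8 of 20 alternatives. Col6a2 did not pass (0.84, adjusted p = 0.0718). None of the 9 fibril-associated chains passed.

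Set side by side, 5 chains were lower in both tissues (Col6a2, Col6a3, Col6a6, Col14a1 and Col16a1). Only Col27a1 was lower in muscle and higher in lung, at -1.91 and 0.92, with an interaction of 2.80 ± 0.59 (edgeR adjusted p = 0.00228). Neither of its calls was stable, with that in muscle lost in 6 of 15 alternatives and that in lung in 6 of 17. A further 11 chains were lower in muscle and did not pass in lung, and 8 were lower in lung and did not pass in muscle. Col7a1, Col11a1 and Col18a1 were higher in lung and did not pass in muscle. Col12a1, Col20a1 and Col26a1 passed in neither, and Col9a2 and Col25a1 were tested in neither.

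Levels between genes were compared in TPM, the deposited unit that divides by transcript length. In control muscle the 44 chains summed to 148 ± 13.1 TPM (SD, n = 3), led by Col1a2 (31.4 ± 7.93 TPM), Col1a1 (22.3 ± 4.85), Col3a1 (14.6 ± 4.49), Col4a1 (11.9 ± 0.98) and Col15a1 (10.8 ± 3.37). Neighbours in this order lay within the sum of their SDs of each other. In tumour-bearing muscle the sum was 35.2 ± 6.52 TPM, and Col4a1 (9.30 ± 1.01), Col4a2 (6.71 ± 0.34) and Col7a1 (4.96 ± 3.89) led. The fibrillar share of the sum went from 54.6% ± 5.90 to 17.1% ± 1.91, and the type IV share from 13.4% ± 0.80 to 47.1% ± 8.70. The type IV sum itself was 19.8 ± 2.12 TPM and 16.2 ± 0.71 TPM.

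**Figure D4:**
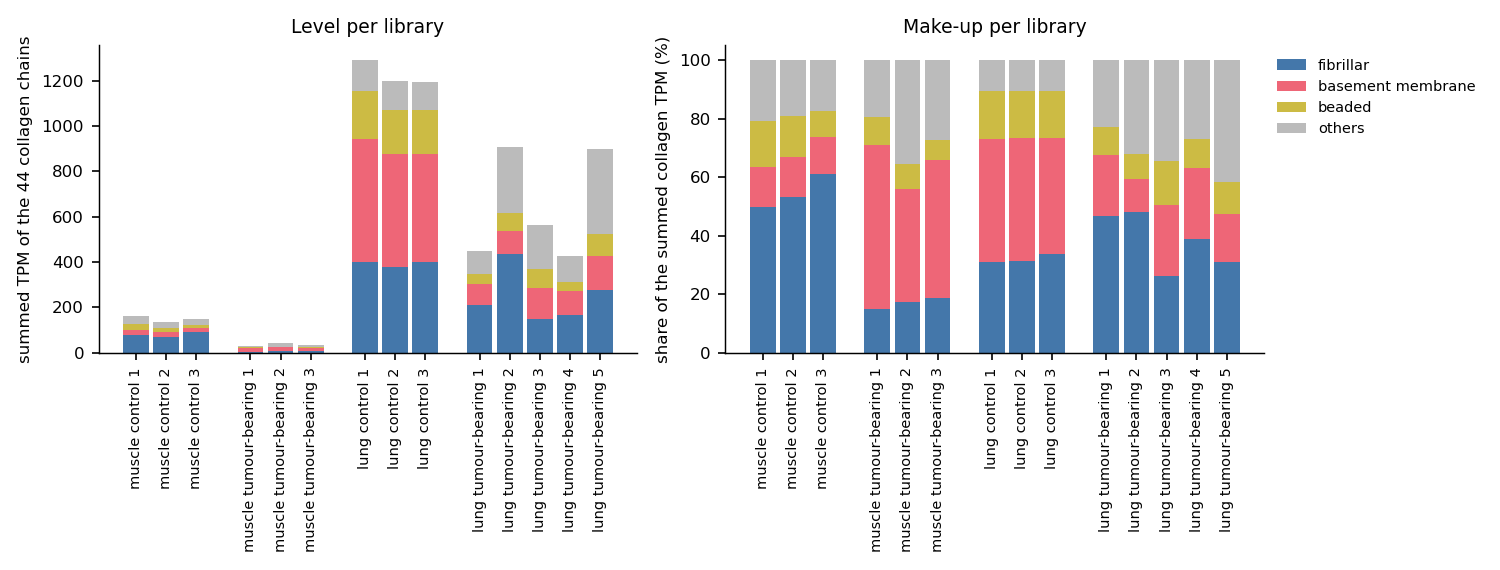
Summed TPM of the collagen chains in each of the 14 libraries (left) and the share of each class in that sum (right), as stacked bars. Fibrillar chains make up 49.7% to 61.2% of the sum in control muscle and 15.1% to 18.8% in tumour-bearing muscle, and basement membrane chains 39.7% to 42.1% in control lung and 11.2% to 24.4% in tumour-bearing lung.

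In control lung the chains summed to 1228 ± 54.2 TPM (n = 3), led by Col4a1 (276 ± 17.5), Col3a1 (164 ± 11.2), Col4a2 (145 ± 9.77), Col1a2 (113 ± 2.32) and Col6a1 (95.1 ± 5.59). In tumour-bearing lung they summed to 650 ± 237 TPM (n = 5), with 429 to 564 TPM in TB 1, TB 3 and TB 4 and with 900 and 908 TPM in TB 5 and TB 2. Col18a1, sixteenth in control lung at 15.6 ± 0.70 TPM, led in tumour-bearing lung at 134 ± 71.2 TPM. Col1a1 (76.2 ± 42.5), Col4a1 (76.1 ± 13.1), Col3a1 (67.2 ± 33.4), Col1a2 (59.4 ± 28.4) and Col7a1 (40.4 ± 37.3) followed, and these do not differ from their neighbours beyond their spread. The type IV share went from 41.2% ± 1.26 to 19.4% ± 5.60, and the share of the other classes from 10.5% ± 0.14 to 31.7% ± 7.23, while the fibrillar share was 31.97% ± 1.42 and 38.2% ± 9.63.

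Ratios between chains that assemble together do not depend on library scaling and were compared with exact permutation tests (two-sided, 8 tests). With 3 libraries against 3 the smallest p is 0.1, and with 3 against 5 it is 0.0357, so no ratio could pass after adjustment. In control lung the TPM of Col1a1 over Col1a2 was 0.548, 0.611 and 0.613, and in tumour-bearing lung it was 1.19, 1.38, 1.14, 1.24 and 1.31. The groups were apart by 1.08 log2 units (exact p = 0.0357, adjusted 0.0952). Col1a1 over Col3a1 was 0.370 to 0.447 in control and 0.973 to 1.4 in tumour-bearing lung, with no overlap (exact p = 0.0357, adjusted 0.0952). Col6a1 over Col6a2 was 1.299 to 1.334 in control and 1.39, 1.80, 4.83, 1.86 and 4.20 in tumour-bearing lung (exact p = 0.0357, adjusted 0.0952), the high values belonging to TB 3 and TB 5.

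**Figure D5:**
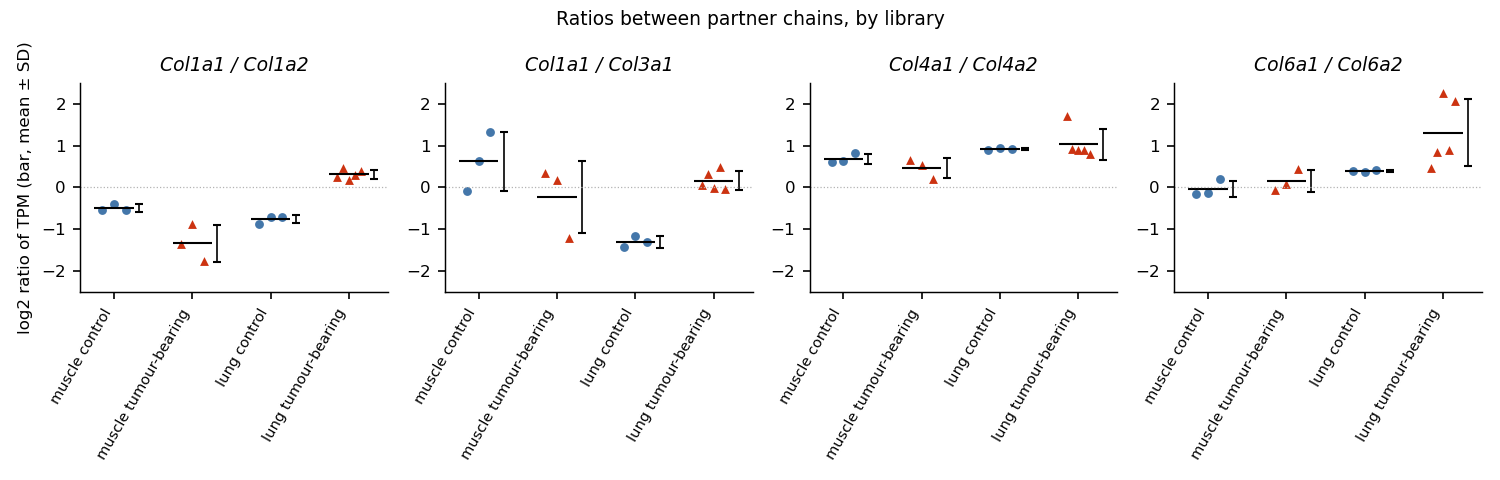
Ratios of TPM between partner chains, on a log2 axis, for each library in the 4 groups, with group means and SDs. In lung the Col1a1/Col1a2 and Col1a1/Col3a1 ratios of the 5 tumour-bearing libraries lie above those of the 3 controls. In TPM, though not in CPM, the lung Col4a1/Col4a2 ratio is alike except in 1 tumour-bearing library.

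In contrast, Col4a1 over Col4a2 in TPM was 1.87, 1.93 and 1.88 in control lung and 3.25, 1.88, 1.85, 1.85 and 1.73 in tumour-bearing lung. Thus 4 of 5 tumour-bearing libraries were within or just below the control range (exact p = 0.857, adjusted 0.857). This overlap was seen in TPM only: with the CPM of both chains, the ratio in every tumour-bearing lung library lay above every control. In muscle Col1a1 over Col1a2 was lower in every tumour-bearing library, at 0.391, 0.542 and 0.295 beside 0.691, 0.765 and 0.685 in the controls (exact p = 0.1, the smallest possible, adjusted 0.2). The direction was thus opposite to that in lung. Col1a1 over Col3a1 in muscle varied widely among controls, at 0.944, 1.56 and 2.51, and overlapped with the tumour-bearing libraries at 1.28, 1.14 and 0.431 (exact p = 0.3, adjusted 0.4). The type IV and type VI ratios of muscle overlapped too in TPM (exact p = 0.3 and 0.5, adjusted 0.4 and 0.571). In CPM the type IV ratio of every tumour-bearing muscle library lay below every control, the opposite direction to lung.

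The baseline difference between the tissues depended on the scaling. With edgeR's scaling by trimmed means, 19 of 41 tested chains were higher in control lung than in control muscle and 16 lower, where 44.9% and 36.5% of all genes were, or 81.3% in either direction. With limma on log2(TPM + 1), 30 were higher and 8 lower, and the median over all genes moved by 1.41 log2 units. Calls that held on both scales are therefore given: 19 chains were higher in lung on both, among them all 6 type IV chains, Col6a1, Col6a2, Col6a3, Col13a1, Col18a1 and Col23a1. On both scales 8 were higher in muscle (Col2a1, Col6a6, Col7a1, Col9a1, Col11a1, Col19a1, Col22a1 and Col24a1). The type I chains Col1a1 and Col1a2, with Col8a1, Col20a1 and Col26a1, changed direction with the scale.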

How the data were processed

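RNA from 6 muscle and 8 lung libraries was read at 100 bases with a directional kit, per the labels. Trim Galore, STAR 2.7.9a and RSEM 1.3.3 are named in the submitters' processing notes; for settings, strandedness of the counting and build, nothing is stated (not given in the sources used here). For each library the authors deposited RSEM expected counts, which share reads that map to several genes and of which 6.28% to 11.9% were not whole, and TPM. Symbols matched 52083 of 55416 identifiers.

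Expected counts were rounded to whole numbers and tested with the two-sided quasi-likelihood test of edgeR 4.0.16 (R 4.3.3) after filterByExpr and TMM scaling, each tissue on its own, with Benjamini-Hochberg adjustment over all genes tested and a threshold of 0.05. The SE is the absolute log2 change divided by the square root of F. The scripts were tested on simulated data. Ratios of TPM used exact permutation tests in scipy 1.17.1. Alternatives were other scalings and filters, DESeq2 1.42.0, limma 3.58.1 on log2(TPM + 1) and log2(TPM + 0.1), 1 fit of all libraries, a block on replicate number, and leaving out each library. The replicate pairs of a group differed by far more than sampling noise (chi-square per degree of freedom 19.5 to 437), so none was treated as a duplicate.

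The chains and the 5 pathway and 15 marker lists were chosen with earlier results of these data known. Values per library are given for 10 main chains, and for the 6 largest changes each way among called chains with a mean of at least 1 CPM in each tumour comparison. From each list, the 2 members with the smallest p could be named, and only those that passed are given with a change.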

Additional observations from a re-analysis of the deposited data

Results flagged for a closer look

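In the groups of 5 libraries, 24 sets of values were examined for a library far from the rest, and 3 had one where chance gives about 1 in 20. Col13a1 was at 2.66 CPM in tumour-bearing lung library 2, above the 0.290 to 0.920 CPM of the other 4. Col23a1 was at 4.92 CPM in tumour-bearing lung library 3, above the 2.62 to 3.11 CPM of the other 4. The Col4a1/Col4a2 ratio of TPM was 3.25 in tumour-bearing lung library 1, above the 1.73 to 1.88 of the other 4. Both chains stayed below every control library in each of the 5.

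The tumour-associated change differed between tissues by the interaction test of edgeR for 16 of the chains described by library. In log2 units, lung minus muscle, the difference was 5.76 for Col1a1, 3.89 for Col1a2, 3.08 for Col3a1, 4.61 for Col24a1 and 2.80 for Col27a1 among the fibrillar chains. It was -1.25 for Col4a2, -4.86 for Col4a3 and -4.41 for Col4a4 among the type IV chains, and 1.82 for Col6a1 and 1.74 for Col6a3 among the type VI chains. It was 4.29 for Col15a1, 4.70 for Col18a1 and 3.97 for Col7a1, and -4.38 for Col13a1, -3.30 for Col8a2 and -4.09 for Col23a1. The calls of Col4a2 and Col6a1 were the least stable of these, lost in 10 and 8 of 20 alternatives.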

How the results depend on the processing

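No alternative turned the direction of a chain called in muscle or lung. In muscle 18 chains were lower, and 10 were with limma on log2(TPM + 1); leaving out 1 library gave 8 to 18, with 10, 9 and 8 without control 1, 2 and 3. The 2196 genes called in muscle became 3657 with DESeq2, 4031 with no filter, 415 with limma on log2(TPM + 1), 676 on log2(TPM + 0.1) and 3459 in 1 fit of all libraries, and 106 to 4513 when 1 library was left out (243, 141 and 106 without control 1, 2 and 3, and 1432, 4513 and 1129 without tumour-bearing library 1, 2 and 3). In lung 5 chains were higher, and 3 were on either TPM scale; leaving out 1 library gave 3 to 7, with 3 without control 2. Of the 20 chains called in lung, 18 kept their call in every alternative that tested them, and Col11a1 and Col27a1 did not. Control lung against control muscle gave 19 higher and 16 lower, and 30 and 8 on both TPM scales. Without tumour-bearing library 1 the muscle changes of Col4a2 and Col7a1, which did not pass, reversed (ranges over libraries left out -0.56 to 0.028 and -0.72 to 0.088), and the lung Col4a1/Col4a2 difference reversed from 0.11 to -0.051 (range -0.051 to 0.18). The interaction of Col4a6 reversed to 0.39 without muscle tumour-bearing library 3 (range -4.46 to 0.39). Upper-quartile scaling moved the median of all muscle genes by -0.22, and the TPM scales moved that of lung by -0.31 and -0.46.

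Samples numbered 1 and 3 deviated together in muscle, but not those numbered 2 (correlations of 0.36, 0.37 and -0.05) nor any in lung (0.04, 0.06 and -0.00), and not every sample matched its own number best. The samples were therefore taken to share only a number. With a replicate block 22 chains were lower in muscle and 3303 genes were called there, 4 chains were higher and 17 lower in lung, and 15 and 9 differed in the interaction. Col18a1 (adjusted p = 0.0317) and Col8a2 (0.00635) then passed in muscle, Col6a1 passed (0.045) and Col11a1 missed (0.0922) in lung, and Col4a1 passed in the interaction (0.0408). The cause of these changes was not tested. Depth limited the chains with under about 33 counts a group, which could not be tested.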

Other observations

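The number of chains that carried most of the collagen signal was similar in the 4 groups, although the chains changed. Ranked by mean TPM, 13 chains made up 90% of the summed level in control muscle and 15 in tumour-bearing muscle, and 14 did in control lung and 12 in tumour-bearing lung. The chains with a mean of at least 1 TPM numbered 17 and 7 in muscle, and 28 and 21 in lung. Collagen chains took 0.0911% to 0.112% of all counts in control muscle and 0.0161% to 0.0244% in tumour-bearing muscle, and 0.449% to 0.461% in control lung and 0.177% to 0.378% in tumour-bearing lung. Neither pair of ranges overlapped.

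The partner chains Col8a1 and Col8a2 of type VIII collagen form the hexagonal network under vessel and corneal endothelium. In lung Col8a2 was lower and Col8a1 did not pass. In muscle their log2 changes were alike, at -2.18 for Col8a1 and -2.35 for Col8a2, with no overlap in either. Col8a1 passed there and Col8a2 narrowly missed (edgeR adjusted p = 0.0105 and 0.0541). In TPM, Col8a2 was at 6.87 ± 0.22 in control lung (SD, n = 3) and 0.10 ± 0.04 in tumour-bearing lung (n = 5), and Col8a1 at 2.46 ± 0.10 and 5.53 ± 5.54, where library 2 stood at 15.39 and the other 4 at 2.54 to 3.65. In muscle Col8a1 was at 0.83 ± 0.40 and 0.18 ± 0.03 TPM, and Col8a2 at 0.49 ± 0.25 and 0.11 ± 0.05 TPM (n = 3 each). Col19a1, a chain of muscle and nerve basement membrane zones, was at 0.860, 0.629 and 1.06 CPM in control muscle and at 1.36, 0.540 and 2.47 CPM in tumour-bearing muscle, which overlapped.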
